A study of Mus musculus with 2 samples.

Results

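The AP-2 factors *Tfap2a* and *Tfap2b*, the PR-domain factor *Prdm13*, the Onecut factors *Onecut1*, *Onecut2* and *Onecut3*, the LIM homeobox factor *Lhx1* and the homeobox factor *Prox1* were followed in cells of the developing mouse retina. These 8 genes were chosen by symbol among the 28692 genes of the count matrices, each on 1 row, and all 8 had at least 10 unique molecular identifiers (UMIs, each marking 1 captured transcript) in every comparison below. Retinas came from E14.5 embryos of the strain Tg(Lhx4::EGFP)KN199Gsat/Mmucd, in which a bacterial artificial chromosome carrying *Lhx4* sequence drives EGFP, so that GFP marks cells that use this transgene and not *Lhx4* itself. Retinas of 2 litters were pooled into 1 suspension and sorted. Cells with GFP (GFP+, labelled as cone photoreceptors) and cells without it (GFP−, labelled as retinal cells) were each made into 1 droplet library. The animals of both gates carried the transgene, and no other genotype, treatment or age was compared. With 1 library per gate there were no replicates and no test was made. The 95% intervals given cover counting error only, and a called gene is one whose level differed 2-fold or more between the groups.

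In the mouse retina, progenitors that express the bHLH factor *Ptf1a*, under the forkhead factor *Foxn4*, give rise to amacrine and horizontal cells, the inhibitory interneurons of the inner and outer plexiform layers. AP-2 factors are switched on in both of these cell types as they leave the cell cycle, and *Prdm13* acts below *Ptf1a* in amacrine cells. Horizontal cells are known for *Onecut1*, *Onecut2*, *Lhx1*, which sets their position in the retina, and *Prox1*, which is also found in progenitors. Onecut factors are shared more widely, with ganglion cell precursors and with progenitors that give cones and horizontal cells. Ganglion cells are marked here by *Pou4f2* and *Isl1*, and photoreceptor precursors by *Otx2* and *Crx*.

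Positions are given on GRCm38 from the GENCODE vM21 annotation, which is the build of the files. *Tfap2b* lies on chr1:19208914-19238576 (plus strand) and *Prox1* on the minus strand of the same chromosome, at chr1:190118035-190170714. *Prdm13* lies on chr4:21677480-21685963 (minus), *Onecut1* on chr9:74861921-74891781 (plus) and *Onecut3* on chr10:80494835-80517276 (plus). *Lhx1* lies on chr11:84518284-84525535 (minus) and *Tfap2a* on chr13:40715302-40738376 (minus). All are protein-coding. *Onecut1* shares 29556 bases with the long noncoding gene *Gm20649* on the same strand, and reads that fit both genes are not counted for either by Cell Ranger. *Prox1os* (419 bases shared) and *Gm28172* (964 bases) overlap *Prox1* on the opposite strand, and *Lhx1os* lies 124 bases beyond the start of *Lhx1* and runs the other way. *Gm26688* shares 7355 bases with *Tfap2a* on the opposite strand.

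The 250 bases upstream of RefSeq starts were read for 6 members, with 8 starts in all, from RefSeq promoter sequences (GRCm38.p6). They were searched on both strands for motifs of the members themselves and of their known regulators. This was done because these genes were high in the same cluster of cells. The TC-box TTTCCCA, the part of the *Ptf1a* complex motif bound by its RBPJ subunit, was found at *Prdm13* and *Tfap2a*, and in 6.82% of all 32851 promoter windows of that length. An E-box of the form CATCTG was found at *Prox1* and in 14.4% of all windows. The 3 matches are shown in capitals, 5′ to 3′ on the strand of the gene, as windows of 30 bases.
*Prdm13*, TTTCCCA, chr4:21686168-21686197, minus strand: agtagtcacttaTTTCCCAaaactggtttg
*Tfap2a*, TTTCCCA on the opposite strand, chr13:40734921-40734950, minus strand: attaaaaaggagaatctTGGGAAAactgga
*Prox1*, CATCTG on the opposite strand, chr1:190170989-190171018, minus strand: gcacaacgcccgCAGATGgctcgcggcggc
The match at *Prdm13* lay 216 bases before the RefSeq start of its window, that at *Tfap2a* 7 bases and that at *Prox1* 174 bases. *Tfap2a* and *Prox1* have 2 RefSeq starts each, and these need not be the ends of the gene given above: the *Tfap2a* window lies within the span of the gene. No match to the AP-2 palindrome GCCNNNGGC (13.7% of all windows), to the Onecut motifs ATTGAT (6.72%) and ATCGAT (0.728%) or to the E-box CAGCTG (13.0%) was found in these 8 windows. A match of these letters describes the sequence and does not show a bound site.

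After cells with more than 250 and fewer than 3500 genes were kept, 3689 of 3728 GFP+ cells (15503658 UMIs, median 3894 per cell) and 3389 of 4445 GFP− cells (30094636 UMIs, median 8848) remained. Nearly all of the removed cells, 1055 in the GFP− gate and 39 in the GFP+ gate, were over the upper limit on genes. Barcodes found in both libraries numbered 20, of which 15 were kept in both. Levels are UMIs summed over cells, scaled to a total of 1000000 (CPM). The cells were clustered with the 8 members left out of the variable genes, and the 9 clusters were named from marker genes. Cone-like clusters held 215 GFP− cells. The other GFP− cells fell into multipotent retinal progenitor cell (RPC)-like (1845 cells), neurogenic RPC-like (284), ganglion and amacrine precursor-like (RGC/AC precursor-like, 450), ganglion cell-like (RGC-like, 232) and amacrine and horizontal cell-like (AC/HC-like, 363) clusters. The RGC/AC precursor-like class also held cells with *Otx2*, as given below. *Crx* stood at 824 CPM in the GFP+ library against 20.6 CPM in the other, and 3402 of the 3689 GFP+ cells were cone-like.

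The GFP gates separated the members into those of the AP-2 and *Prdm13* kind, which were far lower in GFP+ cells, and *Onecut1* and *Onecut2*, which were higher there. *Tfap2b* stood at 5.55 CPM (4.44 to 6.85) in GFP+ and 78.0 CPM (74.9 to 81.2) in GFP− cells. *Tfap2a* stood at 1.42 and 10.3 CPM, and *Prdm13* at 1.61 and 20.7 CPM. *Prox1* stood at 2.19 and 16.2 CPM. These 4 of 8 members were called lower in GFP+ cells, where 16.8% of all 15236 genes tested were called lower. The ratio of GFP+ to GFP− was 0.0711 (0.0567 to 0.0882) for *Tfap2b*, 0.138 (0.0851 to 0.212) for *Tfap2a*, 0.0778 (0.0499 to 0.116) for *Prdm13* and 0.135 (0.0924 to 0.191) for *Prox1*. With cone-like GFP+ cells set against GFP− cells that were not cone-like, the ratio was 0.00346 for *Tfap2b*, 0.00651 for *Prdm13* and 0.0528 for *Tfap2a*. By the mean of per-cell values it was 0.0350 for *Tfap2b*, 0.0400 for *Prdm13* and 0.0826 for *Tfap2a*.

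*Onecut1* was the only member of the 8 called higher in GFP+ cells, against 23.0% of all genes tested. It stood at 51.9 and 21.7 CPM, a ratio of 2.39 (2.16 to 2.66), and *Gm20649*, which overlaps it, stood at 17.9 and 7.88 CPM. *Onecut2* stood at 215 and 119 CPM, a ratio of 1.81 (1.73 to 1.90), which is short of the 2-fold limit. *Onecut3* (1.94 and 2.86 CPM) and *Lhx1* (4.77 and 3.69 CPM) had ratios of 0.677 (0.431 to 1.04) and 1.29 (0.951 to 1.75), with intervals that include equal levels. The median log2 ratio of the 8 members was −1.71 and that of all genes tested 0.29, with a count of 0 set to 3 UMIs in medians here and below. Scaling by trimmed means (TMM) shifted every log2 ratio by −0.33, which took *Onecut1* to 1.91, short of the limit. Mean UMIs per cell, with no scaling for depth, shifted them by −1.08, which turned the direction of *Onecut2* (0.857) and *Lhx1* (0.612).

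**Figure D1:**
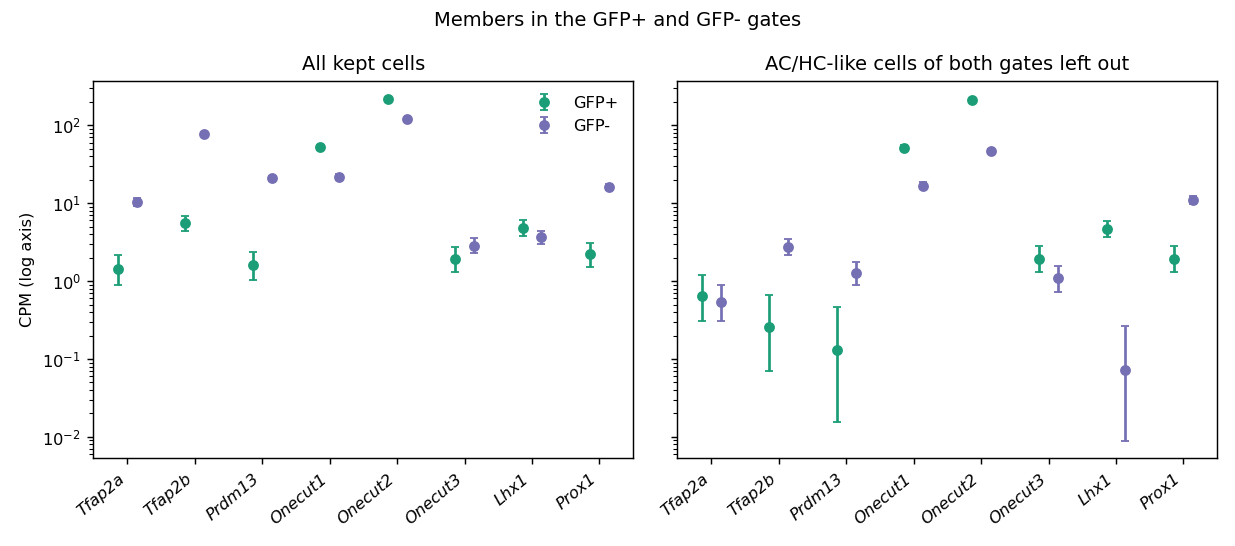
Level of each member in CPM (log axis) in the GFP+ (green) and GFP− (purple) libraries, with all kept cells on the left and with the AC/HC-like cells of both gates left out on the right. Points are sums over cells and bars are 95% Poisson intervals. *Lhx1* stands at 4.77 and 3.69 CPM on the left and at 4.67 and 0.0725 CPM on the right.

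Cells of the AC/HC-like cluster made up 363 of 3389 GFP− cells, or 10.7% (9.69 to 11.8), and 15 of 3689 GFP+ cells, or 0.407% (0.228 to 0.670). Those 15 GFP+ cells held 82 of the 86 *Tfap2b* UMIs of the GFP+ library and 23 of its 25 *Prdm13* UMIs. Their *Tfap2b* level, 849 CPM (675 to 1053), was close to the 903 CPM (866 to 941) of AC/HC-like GFP− cells, with overlapping intervals. None of the 15 carried a barcode found in both libraries.

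Without the AC/HC-like cells of both gates, an alternative chosen after the data were seen, the picture differed by member. *Lhx1* was then at 72 UMIs in GFP+ cells (4.67 CPM) and at 2 UMIs in GFP− cells (0.0725 CPM), a ratio of 64.4 (17.2 to 542). *Onecut2* had a ratio of 4.54 (4.26 to 4.85) and *Onecut1* of 3.07 (2.74 to 3.45). The GFP− cells left out held 109 of the 111 GFP− UMIs of *Lhx1*, 64.1% of those of *Onecut2* and 28.8% of those of *Onecut1*. The higher ratios of these genes thus follow from leaving those cells out. That 3 of 8 members were called higher, against 24.6% of 15095 genes, is no separate result. *Tfap2b*, *Prdm13* and *Prox1* remained lower in GFP+ cells, at ratios of 0.0942, 0.102 and 0.176, against 16.4% of genes called lower. *Tfap2a* did not differ beyond counting error, with 10 GFP+ and 15 GFP− UMIs and a ratio of 1.19 (0.479 to 2.84). *Onecut3*, at 30 UMIs in each gate, had a ratio of 1.79 (1.04 to 3.07), which turned its direction.

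*Lhx1* was also found in cone-like GFP+ cells. There it had 67 UMIs in 58 of 3402 cells, or 1.70% (1.30 to 2.20), at a median depth of 3880 UMIs. In multipotent RPC-like GFP− cells, which are not known to use the gene, it had 1 UMI in 1845 cells, or 0.0542%, at a median depth of 9233. Thinned to 3000 UMIs per cell, the shares were 1.32% and 0.0544%. Of the 58 cells, 52 had a *Crx* UMI (89.7%) and 24 an *Onecut2* UMI (41.4%), against 94.0% and 52.5% of cone-like GFP+ cells without *Lhx1*. *Tfap2b* and *Ptf1a* had no UMI in the 58 cells and were in 0.12% and 0.0897% of the others, so that neither share sets the *Lhx1* cells apart from their class. *Lhx1* was higher in cone-like cluster 1 (7.03 CPM, 5.13 to 9.41), led by *Rpgrip1*, *Rd3* and *Pdc*, than in cone-like cluster 2 (2.96 CPM, 1.78 to 4.62), led by *Fabp7* and *Abca4*. In the third cone-like cluster, led by *Slc7a3*, it had 3 UMIs (2.58 CPM, 0.533 to 7.55), an interval that overlaps both. Cone-like GFP− cells held no *Lhx1* UMI in 215 cells. With this count of 0 set to 3 UMIs, the GFP+ level was 2.78-fold higher than that of cone-like GFP− cells. The GFP− class of that name was less uniform, with *Crx* in 54.4% and *Otx2* in 59.5% of its cells, against 93.9% and 99.1% in the GFP+ class. *Lhx1os*, the neighbour of *Lhx1*, had 62 UMIs in the GFP+ library.

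Genes related to the members by family or pathway were counted from lists. Of all genes tested, 23.0% were called higher and 16.8% lower in GFP+ cells. Of 11 relatives with at least 10 UMIs (other AP-2, LIM, PR-domain and Cut genes among them), 6 were higher and 2 lower in GFP+ cells, with a median log2 ratio of 1.33. *Lhx5*, the close relative of *Lhx1*, stood at 19.1 CPM in GFP+ cells against 3.19 CPM. The AP-2 relatives went the other way, with *Tfap2c* at 0.839 and 3.46 CPM and *Tfap2d* at 0.710 and 4.25 CPM. Of 24 genes of amacrine and horizontal specification, 6 were higher, near the share of all genes, and 11 lower (median log2 −0.63). *Foxn4* (1.61 and 48.7 CPM), *Ptf1a* (5.87 and 63.3 CPM) and the amacrine and ganglion cell homeobox gene *Barhl2* (2.39 and 29.4 CPM) were lower in GFP+ cells, while the bHLH gene *Neurod4*, also a photoreceptor gene, was higher (488 and 24.6 CPM). Of 18 ganglion cell genes 12 were lower and 2 higher (median log2 −2.36), and *Dlx1*, *Dlx2*, *Sox4* and *Sox11* stand on both of these lists. Of 10 photoreceptor genes 9 were higher and 0 lower (median log2 5.28). That list includes *Lhx4*, whose sequence drives the EGFP by which the cells were sorted. Of 5 inhibitory transmitter genes 4 were lower, among them *Gad2*, which makes GABA, at 1.74 and 22.6 CPM, and the glycine transporter *Slc6a9* was higher, at 15.7 and 1.53 CPM.

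Among GFP− cells the AP-2 genes and *Prdm13* were nearly restricted to the AC/HC-like cluster. *Tfap2b* stood there at 903 CPM in 305 of 363 cells, or 84.0% (79.8 to 87.6). In the other GFP− classes it stood between 0.390 CPM (RGC-like, 1 UMI) and 5.65 CPM (RGC/AC precursor-like, 21 UMIs). Its 38 UMIs in multipotent RPC-like cells included 15 in a cell of that class. *Tfap2a* stood at 117 CPM (104 to 132) in AC/HC-like cells and at 1.72 CPM or less in every other GFP− class, with no UMI in neurogenic RPC-like cells. It was found in 141 AC/HC-like cells, or 38.8% (33.8 to 44.1). *Prdm13* stood at 234 CPM (216 to 254) in 247 AC/HC-like cells, or 68.0% (63.0 to 72.8). It had 16 UMIs in RGC/AC precursor-like cells (4.31 CPM) and no UMI in RGC-like cells. Of all GFP− cells with the gene, the AC/HC-like cluster held 85.2% for *Tfap2b*, 90.4% for *Tfap2a* and 89.8% for *Prdm13*. Thinned to 3000 UMIs per cell, the AC/HC-like share was 75.5% for *Tfap2b*, 27.8% for *Tfap2a* and 43.0% for *Prdm13*. In multipotent RPC-like cells, at a median depth of 9233 UMIs against 6741, it was 0.435%, 0.163% and 0.163%. The precursor level of *Ptf1a*, which acts upstream of *Prdm13*, was 97.2 CPM in 13.6% of cells, against 596 CPM in 88.4% of AC/HC-like cells.

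**Figure D2:**
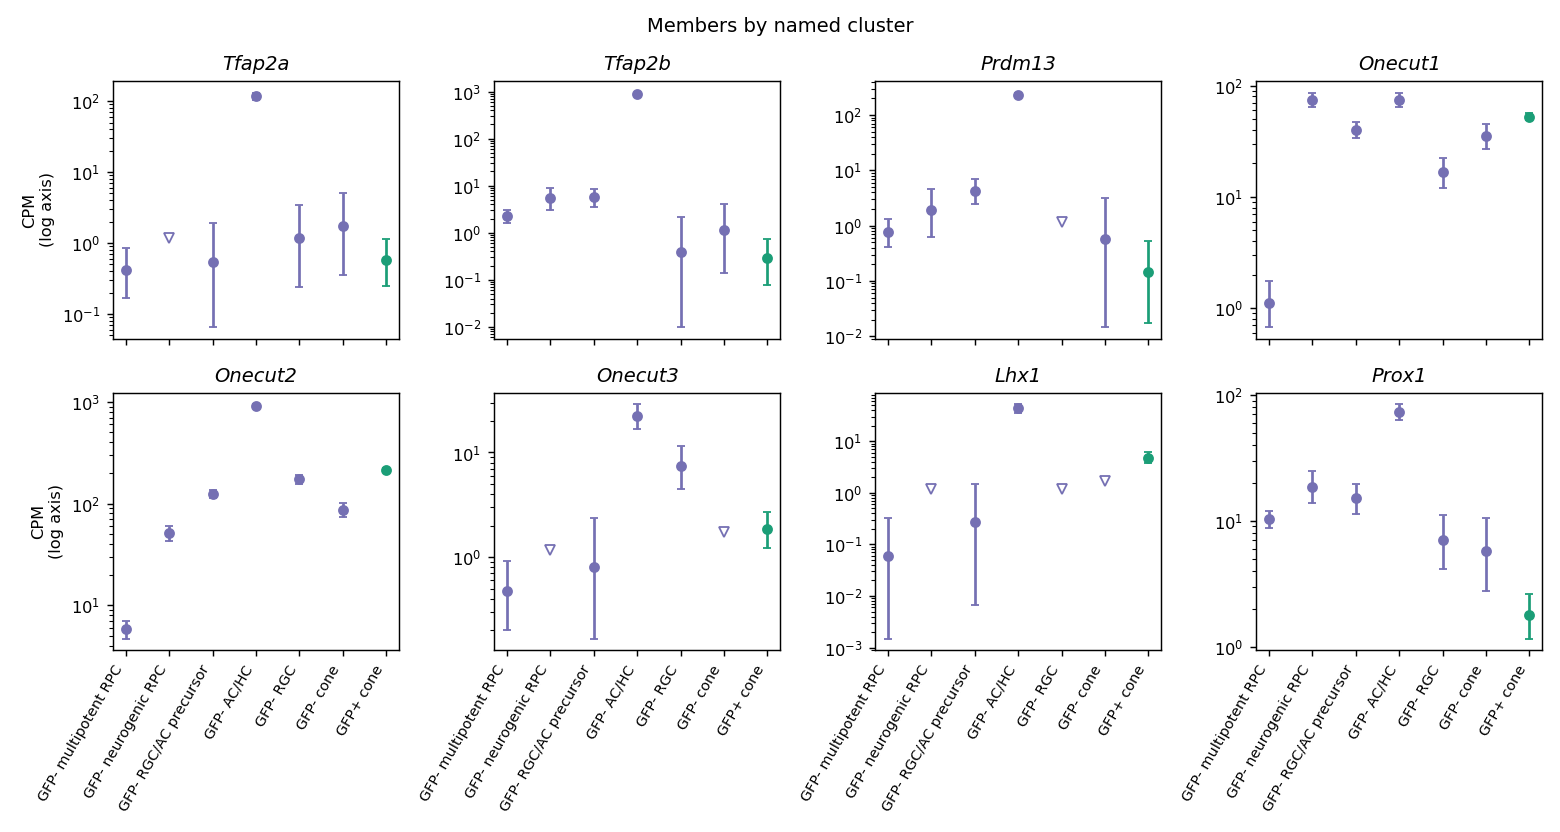
Level of each member in CPM (log axis, one panel per gene with its own range) in 6 classes of GFP− cells (purple) and in cone-like GFP+ cells (green). Points are sums over cells, bars are 95% Poisson intervals, and open triangles mark the level of 3 UMIs in a class with no UMI. For 7 of 8 members the AC/HC-like class is highest, while *Onecut1* is as high in neurogenic RPC-like cells (75.0 CPM) as in AC/HC-like cells (74.8 CPM).

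The Onecut genes were spread over several lineages, each in its own way. *Onecut1* stood at 74.8 CPM (64.5 to 86.3) in AC/HC-like and 75.0 CPM (64.8 to 86.3) in neurogenic RPC-like cells, which did not differ beyond counting error. It was lower in cone-like GFP+ cells (52.5 CPM, 48.8 to 56.4), in RGC/AC precursor-like cells (39.8 CPM, 33.7 to 46.8), in cone-like GFP− cells (35.0 CPM, 26.8 to 45.0) and in RGC-like cells (16.8 CPM, 12.1 to 22.6). The values of RGC/AC precursor-like and cone-like GFP− cells had overlapping intervals. In multipotent RPC-like cells it stood at 1.12 CPM. The cone-like GFP− class was mixed for both genes. Its cells with *Crx* had *Onecut1* in 29.9% and *Onecut2* in 60.7%, against 2.04% and 11.2% of those without *Crx*. *Onecut2* was highest in AC/HC-like cells, at 910 CPM (873 to 948) in 93.1% of them. It followed in cone-like GFP+ (214 CPM, 207 to 222), RGC-like (173 CPM, 157 to 190), RGC/AC precursor-like (124 CPM, 113 to 136), cone-like GFP− (86.7 CPM, 73.4 to 102), neurogenic RPC-like (50.9 CPM, 42.5 to 60.4) and multipotent RPC-like cells (5.77 CPM, 4.69 to 7.03), with no overlap between neighbours in this order.

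The share of cells with *Onecut2* depended on depth. It was 66.8% in RGC-like cells and 52.4% in cone-like GFP+ cells, at median depths of 11738 and 3880 UMIs. Thinned to 3000 UMIs per cell it was 35.7% (29.5 to 42.2) and 44.1% (42.3 to 45.8), which is the order of the CPM values. In multipotent RPC-like cells the thinned share was 1.69%. *Onecut3* stood at 22.3 CPM (16.8 to 28.9) in AC/HC-like cells, 7.40 CPM (4.46 to 11.6) in RGC-like cells, 1.86 CPM in cone-like GFP+ cells and at 0.807 CPM or less in the other GFP− classes. It had no UMI in cone-like GFP− and neurogenic RPC-like cells, where 3 UMIs would stand at 1.72 and 1.17 CPM. Of its 68 GFP− cells, 42 were AC/HC-like and 15 RGC-like.

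Of the 60 GFP− cells with *Lhx1*, 58 were AC/HC-like, or 96.7% (88.5 to 99.6), an interval that overlaps that of *Tfap2a* (84.6 to 94.5). *Lhx1* stood at 43.4 CPM (35.6 to 52.3) in AC/HC-like cells, where 58 of 363 cells had a UMI (12.4 to 20.2%), and 9.09% of cells after thinning. Outside this cluster it had 1 UMI in RGC/AC precursor-like and 1 in multipotent RPC-like GFP− cells. *Prox1* was found in progenitors too. It stood at 72.8 CPM (62.6 to 84.1) in AC/HC-like cells, at 18.6 CPM (13.7 to 24.7) in neurogenic and 10.2 CPM (8.78 to 11.9) in multipotent RPC-like cells, and at 15.1 CPM (11.4 to 19.6) in RGC/AC precursor-like cells, the last overlapping with both RPC-like values. Multipotent RPC-like cells made up 41.2% of the 393 GFP− cells with *Prox1*, and 31.6% were AC/HC-like. The multipotent RPC-like class is the largest of the GFP− classes, with clusters of 1078 and 767 cells. Only 162 of its cells had *Prox1*, against 124 of 363 AC/HC-like cells (34.2%). The antisense neighbour of *Prox1*, *Prox1os*, stood at 38.2 CPM in AC/HC-like and 4.59 CPM in multipotent RPC-like cells.

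The proliferation gene *Top2a* was found in 1423 of the 3389 GFP− cells. It was found in 34.6% (30.1 to 39.4) of cells with *Onecut1* and in 34.6% (29.9 to 39.5) of cells with *Prox1*. In cells with *Tfap2b* the share was 10.9% (7.86 to 14.6), with *Tfap2a* 7.69%, with *Prdm13* 8.73%, and 1 of 60 cells with *Lhx1* had a *Top2a* UMI. With *Onecut2* it was 18.9% (16.5 to 21.6) and with *Onecut3* 11.8% (5.22 to 21.9).

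All 8 members were called higher in AC/HC-like than in RGC-like GFP− cells, where 13.1% of 11289 genes tested were called higher. Their median log2 ratio was 4.29, with genes at 0 UMIs set to 3, and that of all genes 0.19. The ratio was 5.26 (4.75 to 5.84) for *Onecut2*, 4.46 (3.19 to 6.37) for *Onecut1*, 3.01 (1.76 to 5.36) for *Onecut3* and 10.4 (6.38 to 17.9) for *Prox1*. The members known from ganglion cells were thus still higher in the AC/HC-like cells. *Tfap2a* had a ratio of 100 on 3 RGC-like UMIs (34.0 to 489) and *Tfap2b* of 2318 on 1 UMI (416 to 91589). *Prdm13* and *Lhx1* had no UMI in 232 RGC-like cells, and the intervals of their ratios began at 162 and 29.65. All 8 stayed called in the 5 other clusterings tried. With no upper limit on genes, where the RGC-like class held 964 cells and no separate precursor class was found, the ratio of *Tfap2b* was 311.

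The lists were counted in the same comparison. Of 16 ganglion cell genes 11 were lower in AC/HC-like cells and only *Dlx1* was higher (median log2 −3.85), with *Isl1* at 16.7 and 1079 CPM and *Pou4f2* at 3.18 and 185 CPM. Of 21 amacrine and horizontal genes 8 were higher and 2 lower (median log2 0.71), and *Ptf1a* had 1498 UMIs against 0. *Barhl2* did not differ beyond counting error (112 and 118 CPM). Of 8 relatives 2 were higher and 3 lower (median log2 −0.41). *Tfap2c* had 62 UMIs in AC/HC-like cells and 0 in RGC-like cells, whereas *Tfap2d* had 0 and 43 (8.76% of all genes were called lower). Of 4 inhibitory transmitter genes 3 were higher and 1 lower (median log2 1.51), with the vesicular transporter *Slc32a1* at 56.5 and 0.390 CPM. Of 6 photoreceptor genes 3 were higher and 1 lower (median log2 1.21). Interneuron markers were uneven in the AC/HC-like cells. *Gad1* and *Calb1* had 4 UMIs each and *Nr4a2* none, while *Gad2* had 182, *Slc32a1* 142 and *Barhl2* 281.

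The endothelial gene *Cldn5* was among the leading genes of the AC/HC-like cluster, with 747 UMIs. The endothelial genes *Cdh5*, *Pecam1*, *Kdr* and *Esam* had 0, 6, 9 and 3 UMIs there. The summed level of the 5 endothelial markers was 304 CPM in AC/HC-like cells, nearly all of it *Cldn5*. It was 10.5 to 55.5 CPM in the other GFP− classes, and *Kdr* had 890 UMIs in multipotent RPC-like cells. The part of *Cldn5* signal in the results for the members was not tested.

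Against RGC/AC precursor-like cells, 7 of 8 members were called higher in AC/HC-like cells, where 12.7% of 11659 genes were. *Onecut1* was the exception, at a ratio of 1.88 (1.51 to 2.34). *Prox1* had a ratio of 4.83 (3.56 to 6.64), *Onecut2* of 7.35 (6.65 to 8.14) and *Prdm13* of 54.4 (33.2 to 95.8), while *Tfap2b* had one of 160 (104 to 259). *Onecut3* had a ratio of 27.6 on 3 precursor UMIs (8.97 to 138), *Tfap2a* of 218 on 2 UMIs (59.8 to 1808) and *Lhx1* of 161 on 1 UMI (28.3 to 6420). In the same comparison 9 of 13 ganglion cell genes were lower and 2 higher (median log2 −1.44), and 6 of 6 photoreceptor genes were lower (median log2 −1.76). Of 22 amacrine and horizontal genes 5 were higher and 8 lower (−0.58), of 8 relatives 3 and 3 (−0.31), and of 4 transmitter genes 2 and 0 (1.56). Of all genes 9.13% were called lower, with a median log2 of 0.08.

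In cone-like GFP+ cells against multipotent RPC-like GFP− cells, where 28.8% of 14563 genes were called higher and 16.3% lower, the members split again. *Onecut1* had a ratio of 46.9 (29.8 to 78.4), *Onecut2* of 37.1 (30.3 to 45.9) and *Onecut3* of 3.95 (1.74 to 10.1), and *Lhx1* one of 81.4 on 1 RPC-like UMI (14.1 to 3261). *Prox1* had a ratio of 0.174 (0.110 to 0.266), *Tfap2b* of 0.128 (0.0331 to 0.355) and *Prdm13* of 0.187 on 2 cone-like UMIs (0.0205 to 0.825). *Tfap2a*, at 8 and 7 UMIs, did not differ beyond counting error. The 267 GFP+ cells that fell into multipotent RPC-like clusters had *Onecut1* at 41.7 CPM and *Onecut2* at 187 CPM, far nearer to the cone-like GFP+ values than to those of RPC-like GFP− cells.

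The AC/HC-like GFP− cells were divided further, again without the members among the variable genes, into sub-clusters of 138, 133 and 92 cells. Their median depths were close, at 6707, 6687 and 7032.5 UMIs. Sub-cluster 1 was led by *Pcp4l1*, *Zfhx3* and *Calb2*, sub-cluster 2 by the neuronal genes *Dcx*, *Mapt*, *Islr2* and *Gap43*, and sub-cluster 3 by *Gal*, *Btbd17* and the progenitor genes *Fgf15* and *Hes5*. *Lhx1os* and *Gm20649*, neighbours of *Lhx1* and *Onecut1*, were among the 15 leading genes of sub-cluster 2, as were *Lhx1* and *Tfap2a* themselves. None of the sub-clusters was given a cell type name.

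Most members were highest in sub-cluster 2, and *Prdm13* was lowest there. *Lhx1* stood at 11.5 CPM in sub-cluster 1, 104 CPM (83.9 to 127) in sub-cluster 2 and 6.09 CPM in sub-cluster 3, and sub-cluster 2 was singled out by this level. *Onecut3* stood at 2.1, 59.7 (44.8 to 77.9) and 0 CPM, and 40 of its 42 AC/HC-like cells lay in sub-cluster 2. *Tfap2a* stood at 74.5 CPM (58.2 to 94.0), 246 CPM (215 to 281) and 1.52 CPM (1 UMI). *Prox1* stood at 50.4 CPM (37.1 to 66.8), 128 CPM (106 to 154) and 28.9 CPM (17.4 to 45.2). The intervals of sub-cluster 2 lay apart from those of the other sub-clusters for *Onecut3*, *Tfap2a* and *Prox1*. They did so for *Lhx1* too, but its rank there was set by the choice of sub-cluster.

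*Tfap2b* and *Onecut2* were found in every sub-cluster at high levels, with *Tfap2b* at 836, 1410 and 302 CPM and *Onecut2* at 805, 1286 and 544 CPM. *Onecut1* stood at 58.8, 118 and 38.1 CPM. *Prdm13* went the other way, at 281 CPM (249 to 317), 136 CPM (113 to 162) and 302 CPM (261 to 347), as did *Ptf1a*, at 657, 388 and 794 CPM. Only 1 of 92 cells of sub-cluster 3 had *Tfap2a*, while 45 had *Tfap2b* and 73 had *Prdm13*.

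**Figure D3:**
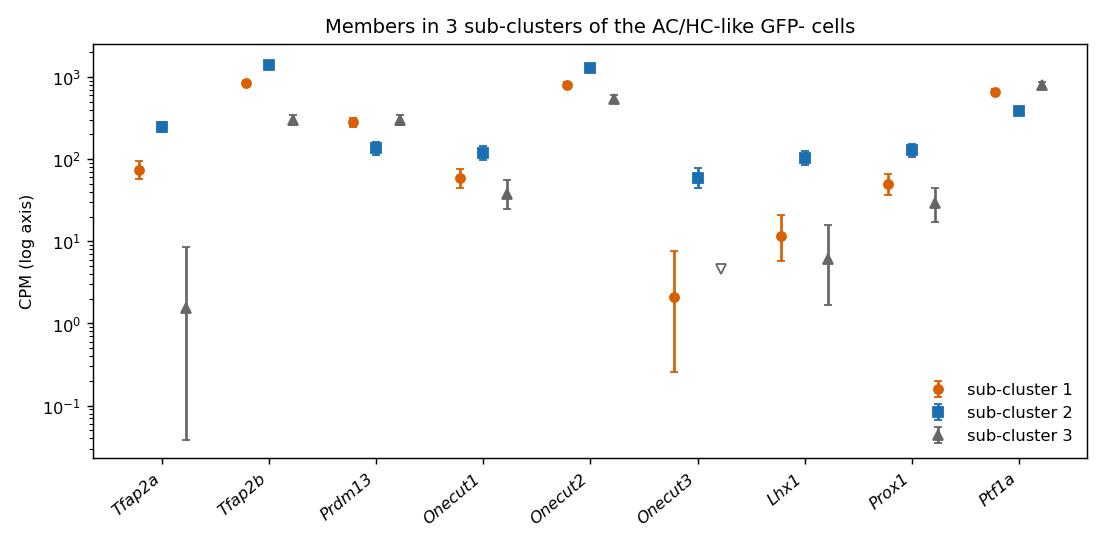
Level of the 8 members and *Ptf1a* in CPM (log axis) in sub-clusters 1 (circles), 2 (squares) and 3 (triangles) of the AC/HC-like GFP− cells. Bars are 95% Poisson intervals, and the open triangle is the level of 3 UMIs for *Onecut3* in sub-cluster 3, where it had none. The squares are highest for 7 members and lowest for *Prdm13* and *Ptf1a*. The 7 include *Lhx1*, by which sub-cluster 2 was singled out.

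Of the 7 members other than *Lhx1*, 5 were called higher in sub-cluster 2 than in all other AC/HC-like GFP− cells, against 8.29% of 9995 genes. The ratio was 48.0 for *Onecut3*, on 2 UMIs in the other cells (12.7 to 407), 5.51 (4.21 to 7.29) for *Tfap2a* and 3.08 (2.26 to 4.22) for *Prox1*. It was 2.35 (1.74 to 3.18) for *Onecut1* and 2.28 (2.1 to 2.48) for *Tfap2b*, and *Onecut2* fell short of the limit at 1.84 (1.70 to 2.00). *Prdm13* was called lower, at 0.469 (0.382 to 0.574), where 8.97% of genes were. Against sub-cluster 1 alone the ratio of *Tfap2b* was 1.69 (1.54 to 1.84) and that of *Prox1* 2.54 (1.80 to 3.64), with 7.95% of genes called higher and 6.29% lower. Against sub-cluster 3 alone *Tfap2b* had a ratio of 4.68 (4.02 to 5.46), with 13.0% of genes called higher and 10.8% lower. *Onecut3* had no UMI in sub-cluster 3, and the interval of its ratio began at 10.3.

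Other horizontal and amacrine genes in the sub-clusters were sparse. *Megf11*, a horizontal cell and starburst amacrine adhesion gene, had 18 UMIs in sub-cluster 2 and none in the others. *Sall3*, which is used by horizontal cells, had 1, 18 and 2 UMIs. *Lhx5* stood at 27.3, 7.74 and 36.6 CPM and *Tfap2c* at 40.9, 8.84 and 22.8 CPM, so that both relatives were lowest in the sub-cluster with the most *Lhx1* and *Tfap2a*. *Gad2* stood at 92.4, 97.3 and 9.14 CPM and *Slc32a1* at 76.6, 69.6 and 9.14 CPM. The bHLH gene *Neurod4* stood at 3.15, 2.21 and 107 CPM.

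Co-detection was counted over all 3389 kept GFP− cells as cells with at least 1 UMI of each gene. Of 358 cells with *Tfap2b*, 324 had a UMI of an Onecut gene or *Lhx1*, or 90.5% (87.0 to 93.3), and the share was 85.1% when cells were thinned to 3000 UMIs. Most of these were through *Onecut2*, which was found in 317 of the 358 cells and in 21.4% of cells without *Tfap2b*. Of the 60 cells with *Lhx1*, 56 had *Tfap2b*, 43 had *Tfap2a* and 59 had *Onecut2*, and 0 had *Pou4f2*. Nearly all of them, 58, were AC/HC-like, a class in which both genes were common. AC/HC-like cells without *Lhx1* had *Tfap2b* in 81.6% and *Onecut2* in 91.8%, against 96.6% and 100% of those with it. Cells with *Lhx1* thus largely had *Tfap2b* and *Onecut2*, as did most of their class. This did not hold for every member (*Prdm13* with *Lhx1* is given below). The reverse did not hold. Of the 966 cells with *Onecut2*, 317 had *Tfap2b*, and of the 358 cells with *Tfap2b*, 56 had *Lhx1*.

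*Onecut1* or *Onecut2* was found in 1114 GFP− cells, which were set beside gene pairs of the amacrine and horizontal, ganglion and photoreceptor lineages. *Otx2* is no photoreceptor marker alone here, since neurogenic RPC-like cells had it too. The ganglion cell genes *Isl1* and *Pou4f2* were not confined to RGC-like cells either, with 42 and 8 UMIs in AC/HC-like cells. RGC-like cells had 2770 and 474 UMIs of them. A UMI of *Tfap2a* or *Tfap2b* was found in 29.4% (26.7 to 32.1) of the 1114 cells. One of the ganglion cell genes *Pou4f2* or *Isl1* was found in 35.3% (32.5 to 38.2), and one of the photoreceptor genes *Otx2* or *Crx* in 34.0% (31.2 to 36.9). Genes of the AP-2 pair alone were found in 21.7%, of the ganglion pair alone in 26.8% and of the photoreceptor pair alone in 24.3%, with 162 cells having none. An AP-2 and a ganglion gene were found together in 39 of these cells, or 3.50% (2.50 to 4.75). After thinning to 3000 UMIs, the share with an AP-2 gene was 35.5%, with a ganglion gene 24.7% and with a photoreceptor gene 27.2%. The order of the 3 shares thus differed after thinning. Thinning also left 716 of the *Onecut1* or *Onecut2* cells, so that depth and the set of cells changed together. The share with both an AP-2 and a ganglion gene was then 1.40%.

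Seen from the AP-2 genes, 47 of 372 GFP− cells with *Tfap2a* or *Tfap2b* had *Pou4f2* or *Isl1*, or 12.6% (9.43 to 16.4), and 4.93% (2.79 to 8.01) after thinning. The part of this share through *Isl1* in AC/HC-like cells is not given apart, so it need not count ganglion cells. Of the 155 RGC-like cells with *Onecut2*, 1 had *Tfap2b* and 106 had *Pou4f2* (68.4%), against 79.2% with *Pou4f2* among those without *Onecut2*.

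*Onecut1* and *Onecut2* differed in the RGC/AC precursor-like cells. Of 90 precursor-like cells with *Onecut1*, 65 had *Otx2* (72.2%) and 19 had *Isl1* (21.1%), against 23.6% and 67.8% of those without *Onecut1*. Of 227 with *Onecut2*, 75 had *Otx2* (33.0%) and 157 had *Isl1* (69.2%), against 33.6% and 47.5% of those without it. *Onecut1* thus went with *Otx2* and *Onecut2* with *Isl1* in the same cluster. The RGC/AC precursor-like class therefore also held cells with *Otx2*, whereas the study described its own cluster of that kind as lacking it. Levels given for this class are those of mixed cells. In neurogenic RPC-like cells, 95 of 106 cells with *Onecut1* had *Otx2* (89.6%), against 49.4% of the rest. *Atoh7*, the bHLH gene of ganglion cell competence, was found in 102 of the 106 (96.2%) and in 82.0% of the rest. Both genes were among the markers that named this class. *Onecut2* was found in 37.7% of neurogenic RPC-like cells with *Onecut1* and in 21.9% of those without it. In cone-like GFP+ cells the same shares were 53.6% and 52.1%.

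**Figure D4:**
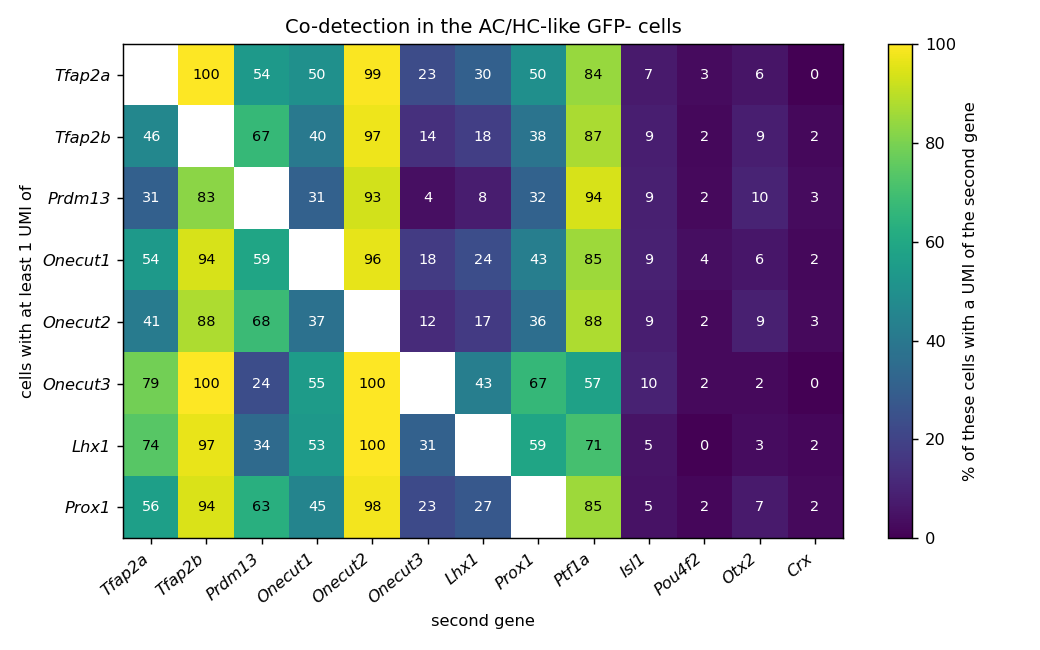
Co-detection in the 363 AC/HC-like GFP− cells. Each square gives, as colour and rounded number, the percentage of cells with a UMI of the gene on the left that also had a UMI of the gene below. All 141 cells with *Tfap2a* had *Tfap2b*, and *Isl1*, *Pou4f2*, *Otx2* and *Crx* were each found in 10.1% or fewer of the cells with any member.

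Within the 363 AC/HC-like GFP− cells, *Tfap2a* was found only in cells with *Tfap2b*, 141 of 141. *Tfap2b* itself was found in 73.9% of the cells without *Tfap2a*. *Lhx1* was found in 30.5% of cells with *Tfap2a* and in 6.76% of those without, and *Onecut3* in 23.4% and 4.05%. *Lhx1* and *Onecut3* were found together in 18 cells, which is 42.9% of the cells with *Onecut3* and 31.0% of those with *Lhx1*. *Prdm13* was found in 34.5% of cells with *Lhx1* and in 74.4% of those without, and *Ptf1a* in 70.7% and 91.8%. Cells with *Lhx1* had *Prdm13* at 113 CPM and cells without it at 256 CPM, while *Tfap2a* stood at 291 and 85.6 CPM and *Prox1* at 121 and 64.0 CPM. Median depths of the cells with and without *Lhx1* were 6568.5 and 6779 UMIs.

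For each member, the genes whose level was most like its own over the 3389 GFP− cells were taken by Pearson's r of scaled log values among 11773 genes. The points share a library, and cells differ in depth, so r is a description only. *Tfap2b* was most like the neurexin gene *Nrxn3* (0.82) and the glutamate transporter gene *Slc1a6* (0.77), and *Tfap2a* most like *Tfap2b* (0.68). *Onecut2* was most like *Tfap2b* (0.72). *Prdm13* was most like *Ptf1a* (0.67) and *Vtn* (0.61), and *Onecut1* most like *Otx2* (0.39), the Notch ligand gene *Dll4* (0.36) and *Neurod1* (0.35). *Lhx1* was most like *Tfap2a* (0.46) and *Lhx1os* (0.43), *Onecut3* most like *9530059O14Rik* (0.39) and *Lhx1os* (0.38), and *Prox1* most like *Tfap2b* (0.36). Between members, r was lowest for *Prdm13* with *Onecut3* (0.03) and *Lhx1* (0.11).

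The 1055 GFP− cells over the upper limit on genes differed in their members. In these cells *Tfap2b* stood at 8.45 CPM (78.0 in kept cells), *Prdm13* at 2.94 CPM (20.7) and *Lhx1* at 0.240 CPM (3.69). *Onecut2* stood at 105 CPM (119 in kept cells) and *Onecut3* at 4.98 CPM (3.96 to 6.17), against 2.86 CPM (2.29 to 3.53) in kept cells. Without the upper limit, the GFP+ to GFP− ratio of *Tfap2b* was 0.124 and that of *Prdm13* 0.148.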

How the data were processed

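Single cells of sorted E14.5 retinas were measured with the 10x Genomics v2 3′ chemistry, 1 library per GFP gate. The deposited matrices hold raw UMI counts per gene and cell, which the authors made with Cell Ranger (2.1.1 in the submitters' processing notes). Normalised values were not used here.

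Following the study's methods, cells with more than 250 and fewer than 3500 genes were kept where mitochondrial genes made up a fraction below 0.25 of UMIs, which reads the stated limit as a fraction. Genes in more than 3 cells were scaled and clustered in Seurat 5.3.0 (R 4.3.3) after regression on UMIs, genes and cell cycle scores, with 30 principal components and the lowest resolution that gave 9 clusters. Neither this clustering nor the sub-clustering (10 components) used the members as variable genes. Clusters were named from markers of cone, RPC, precursor, RGC and AC/HC classes. Retinal pigment epithelium, microglia, red blood cell, mesenchyme and lens markers summed to 1.99 to 7.95 CPM per list in AC/HC-like cells, and endothelial markers are given with the results. Scrublet (scanpy 1.11.5) marked 3 GFP+ and 55 GFP− cells as doublets, of which 2 and 0 were among the kept cells, and these were left in.

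UMIs were summed over cells in Python 3.11.15, with exact Poisson, Clopper-Pearson and conditional binomial intervals (scipy 1.17.1). A gene with at least 10 UMIs in both groups together was called at a ratio of 2 or more, or of 0.5 or less. Shares were recomputed after thinning each cell to 3000 UMIs, leaving out shallower cells. The intervals were checked on simulated counts. TMM factors came from edgeR 4.0.16. Correlated genes were the 3 with the highest r per member among genes found in at least 50 cells.

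The named genes are the members, the 5 lists and those correlated genes, and other genes are neighbours or leading genes of clusters, or were named after their values were seen. Members and lists were chosen with earlier results of these data known. The alternatives without AC/HC-like cells and the 2 alternative sub-clusterings were added after the data were seen. The values of 1 listed gene are not reported here.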

Additional observations from a re-analysis of the deposited data

How the results depend on the processing

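No paired analysis was possible because there was 1 library per gate, and there was no replicate to leave out. The number of members called lower in GFP+ cells was 4, with 5 by mean UMIs per cell and 3 without the AC/HC-like cells. Of 64 alternative values of the members' gate ratios, 34 stayed within the counting interval and the others moved further. The direction turned for *Tfap2a* (1.19) and *Onecut3* (1.79) without the AC/HC-like cells and for *Onecut2* (0.857) and *Lhx1* (0.612) by mean UMIs per cell. Only *Tfap2a* of these had been called. The share of *Tfap2b* cells with an Onecut gene or *Lhx1* was 85.1% at 3000 UMIs per cell and 98.0% when 2 *Tfap2b* UMIs were required. The share of *Onecut1* or *Onecut2* cells with an AP-2 gene was 35.5% at 3000 UMIs, 32.3% at 5000 UMIs, 43.9% when 2 UMIs were required and 21.4% with no upper limit on genes. The cause of these shifts was not tested. All 8 members were called higher in AC/HC-like than RGC-like cells under each alternative run except a fold of 4, which 7 passed. Without regression, the *Lhx1*-highest sub-cluster (140 cells, 115 shared) had 7 of 8 members called higher. Without *Lhx1os* and *Prox1os* among the variable genes (134 cells, 132 shared) it had 6. *Gm20649*, which overlaps *Onecut1*, and *Gm26688*, which overlaps *Tfap2a*, were not left out there. Both counts include *Lhx1*, by which the sub-cluster was chosen. Depth limits the shares of cells with *Lhx1* and *Onecut3*, which had 111 and 86 UMIs in the kept GFP− cells.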
